A study of Homo sapiens with 95 samples.

Results

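The comparison described here is the response of GFP control cells to NNK, the nicotine-derived nitrosamine 4-(methylnitrosamino)-1-(3-pyridyl)-1-butanone. It was measured in 6 of the 95 samples of the series, 3 GFP samples exposed to 490 μM NNK and 3 GFP samples exposed to DMSO, the solvent. Genes were taken when their count averaged above 1 over the 6 samples, which left 13727 of the 27978 genes counted. Another 14251 genes were left out, of which 10013 had 0 counts in all 6 samples. The labels give the groups, and no expression value was used to form them.

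All samples are of AALE, a human bronchial epithelial cell line made to grow without limit. The GFP line was transfected with pSpCas9-EGFP (PX458), a plasmid that carries the Cas9 nuclease and a fluorescent reporter, without any guide RNA. It is the control for the FAT1 and CDKN2A knockout lines, and the labels list it under knockouts although nothing was targeted. The other 5 lines are HcRed, an empty-vector control, and lines that overexpress NRF2, FGFR1, NRG1 or PIK3CA. Each line was also exposed to 173 μM BaP (benzo[a]pyrene) or 24 μg/ml CSC (cigarette smoke condensate). RNA was profiled by sparse full length (SFL) sequencing, a ribosomal RNA depletion protocol with barcoded and pooled libraries. The length of exposure is not given in the sources used here, and only 1 dose of each compound was used.

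NNK is a tobacco-specific carcinogen. It has to be oxidized by cytochrome P450 enzymes before it can alkylate DNA, and it also binds nicotinic and beta-adrenergic receptors, which signal through ERK and cAMP to immediate early genes such as FOS and EGR1. The aryl hydrocarbon receptor (AhR) is a ligand-activated transcription factor that pairs with ARNT, binds xenobiotic response elements and raises CYP1A1, CYP1B1, AHRR and TIPARP. It is best known in airway cells as the sensor of the polycyclic aromatic hydrocarbons of smoke, of which BaP is one. SREBP2 and SREBP1 are transcription factors that raise the enzymes of cholesterol and fatty acid synthesis when sterols in the endoplasmic reticulum are low.

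Upstream sequences of the induced genes are shown because AhR and the serum response factor act through short motifs near the start of their target genes. The first 3 belong to AhR pathway genes, with the core of the xenobiotic response element in capitals (GCGTG, or CACGC where it lies on the other strand), and the fourth belongs to EGR1, with matches to the CArG box of the serum response element in capitals. Each is the 250 bases before the RefSeq transcription start (taken from the RefSeq table, GRCh38.p14), placed by exact match on GRCh37, 5′ to 3′ on the gene's strand. CYP1A1 lies at chr15:75017870-75018119 on the minus strand, AHRR at chr5:321579-321828 on the plus strand, TIPARP at chr3:156392129-156392378 on the plus strand and EGR1 at chr5:137800918-137801167 on the plus strand.
CYP1A1: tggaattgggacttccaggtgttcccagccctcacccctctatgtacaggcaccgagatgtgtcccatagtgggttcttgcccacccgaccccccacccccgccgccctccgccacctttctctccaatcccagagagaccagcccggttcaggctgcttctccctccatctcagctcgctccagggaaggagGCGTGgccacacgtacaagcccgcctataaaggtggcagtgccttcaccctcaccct
AHRR: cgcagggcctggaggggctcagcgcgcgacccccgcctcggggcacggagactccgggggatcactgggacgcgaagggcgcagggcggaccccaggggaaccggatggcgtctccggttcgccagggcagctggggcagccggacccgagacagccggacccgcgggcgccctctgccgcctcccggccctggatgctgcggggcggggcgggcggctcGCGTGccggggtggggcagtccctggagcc
TIPARP: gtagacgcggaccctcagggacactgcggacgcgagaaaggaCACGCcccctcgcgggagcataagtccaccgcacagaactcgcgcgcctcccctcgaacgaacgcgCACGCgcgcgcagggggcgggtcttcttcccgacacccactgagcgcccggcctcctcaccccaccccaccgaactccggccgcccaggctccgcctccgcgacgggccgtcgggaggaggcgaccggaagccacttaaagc
EGR1: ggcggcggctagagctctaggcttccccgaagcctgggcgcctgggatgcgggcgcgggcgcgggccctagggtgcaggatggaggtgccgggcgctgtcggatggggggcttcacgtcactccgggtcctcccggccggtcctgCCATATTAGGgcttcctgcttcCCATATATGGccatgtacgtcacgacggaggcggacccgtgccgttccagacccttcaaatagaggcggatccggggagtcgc
The GCGTG core began 57 bases before the start in CYP1A1, 30 bases before it in AHRR, and 208 and 142 bases before it in TIPARP. It was in 31.9% of the 27305 promoters of this length, so many other genes carry it too. NQO1 held none in the 250 bases, CYP1B1 was not placed on GRCh37, and FOS, LSS, MVD and DHCR7, which are not counted as AhR targets, also held the core. EGR1 held 2 CArG boxes, 105 and 83 bases before the start, against 1.14% of all promoters with at least 1. CYP1A1 held a match to the CArG letters 34 bases before its start that covers its TATA sequence, and FOS and NR4A1 held none in this window. The sterol regulatory element, searched as TCACNCCAC on both strands, was in 0.875% of promoters and in none of the 6 sterol gene promoters searched (LSS, MVD, TM7SF2, MVK, DHCR7 and HMGCS1). A match is a description of these letters only.

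The GFP DMSO samples had 1064885 to 1319161 counted reads and the GFP NNK samples 338978 to 774472, so every NNK sample was shallower than every DMSO sample. A count of 3 corresponds to 2.27 to 2.82 CPM (counts relative to the library's total, before TMM scaling) in DMSO and to 3.87 to 8.85 CPM in NNK. The summed level of 10 epithelial markers was 7214 to 7566 CPM with DMSO and 7904 to 8495 CPM with NNK. Of 18 markers of fibroblasts, endothelium and immune cells, 8 were at 0 in all 6 samples (COL1A2, COL3A1, LUM, THY1, PECAM1, CDH5, KDR and CD3E). Their sum was 16.1 to 23.9 CPM with DMSO and 39.5 to 47.1 CPM with NNK, and their part in the results was not tested. COL1A1 had the most counts of them, 11, 13 and 19 in DMSO and 25, 17 and 10 in NNK, followed by CSF1R, with 10, 3 and 4 against 3, 5 and 3. No 2 replicates agreed within sampling noise (chi-square per degree of freedom 1.23 to 1.504 within groups), so the 6 samples were counted as 6. The paper calls the replicates of a condition biological, without saying whether they were grown and exposed on separate occasions. The p-values measure the spread between these samples, which may be smaller than that between separate experiments. In such bulk samples a loss of cells of one kind and less RNA per cell cannot be told apart.

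With NNK, some genes of the AhR pathway, immediate early genes and genes of cholesterol and fatty acid synthesis rose in both fits described here, and some chaperones and genes of cell division fell. Beside these, most of the genes that passed the test were sorted by their base composition. In limma-voom 2497 of 13727 genes (18.2%) passed an adjusted p of 0.05, 1355 higher (9.87%) and 1142 lower (8.32%) with NNK. With the genes divided into 5 bins of equal size by exon GC content, 2 rose and 716 fell in the lowest bin (30.1 to 40.5% GC). In the highest bin (57.0 to 86.4% GC) 859 rose and 2 fell. The median log2 fold change went from -0.36 in the lowest to 0.62 in the highest bin, while that of all genes was 0.0029.

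The trend was in every NNK sample. Relative to the DMSO samples of the line, log2 CPM changed by 0.38 to 0.45 per 10 percentage points of GC content in the 3 GFP NNK samples, against -0.074 to 0.059 in the 3 DMSO samples. It was 0.26 to 0.35 in the GFP BaP samples and 0.37 to 0.39 in the GFP CSC samples. In the other 7 lines the 21 NNK samples had 0.17 to 0.40 and the 21 DMSO samples -0.10 to 0.086. The 3 NNK samples of other lines that were deeper than any GFP DMSO sample (1538547 to 1625237 counted reads) had 0.20 to 0.36. From the deepest to the shallowest GFP NNK sample the values were 0.38, 0.42 and 0.45. They also increased with falling depth among the CDKN2A, FAT1 and NRF2 NNK samples. Among those of HcRed, FGFR1, NRG1 and PIK3CA they did not follow that order, and the part of depth was not tested. Every DMSO sample of the 8 lines lay below every exposed sample, and exposure and any other difference shared by the exposed samples cannot be told apart.

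The count of calls and the changes with NNK are therefore set beside those from a correction in which a loess trend of the log2 values on exon GC content and exon length was removed from each sample. With the correction 205 of 12903 genes (1.59%) passed, 80 higher (0.62%) and 125 lower (0.969%). The same 12903 genes gave 2448 calls uncorrected. Of the 205 genes, 154 were called in the same direction without the correction (64 higher, 90 lower), 46 were called only with it and 5 were called in the opposite direction. One of these 5 is PLEC, the cytoskeletal linker plectin (67.2% GC), which went from 0.70 to -0.21 on the log2 scale, the latter a call lost without NNK replicate 1 (-0.15). The corrected count was lowest without an NNK sample: it was 99 without NNK replicate 1, 115 without NNK replicate 2 and 135 without NNK replicate 3. It also fell without DMSO replicate 1 or DMSO replicate 2. With the correction, calls were spread over the bins of GC content, with 11 higher and 28 lower in the lowest and 10 higher and 22 lower in the highest.

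**Figure D1:**
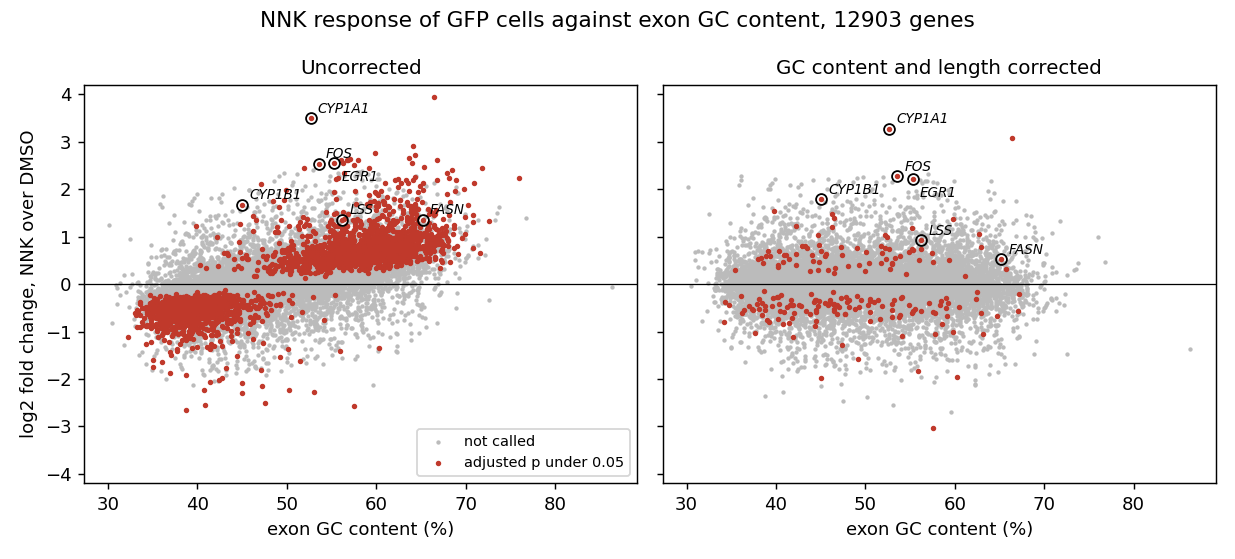
Log2 fold change of NNK over DMSO in GFP cells (vertical axis) against exon GC content in percent (horizontal axis) for the genes with a GC content, uncorrected on the left and corrected for GC content and length on the right, with genes of adjusted p under 0.05 in red and 6 named genes circled. On the left called genes fall at low and rise at high GC content, and on the right 205 called genes lie on both sides of zero at all GC contents, with CYP1A1, EGR1, FOS and CYP1B1 near the top in both.

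The AhR pathway gave the largest change of a named gene. CYP1A1, the P450 that oxidizes polycyclic aromatic hydrocarbons, had 11, 5 and 10 counts in the DMSO samples and 67, 49 and 27 counts in the NNK samples. In CPM these were 10.5, 4.74 and 7.65 against 85.5, 92.4 and 79.5, so that the lowest NNK sample was far above the highest DMSO sample. This is a log2 fold change of 3.49 (SE 0.33, adjusted p = 6.26e-15), and 3.27 (SE 0.33, adjusted p = 2.59e-13) with the correction. CYP1B1, the other inducible P450 of this family, rose from 46.0, 52.2 and 68.1 CPM to 184, 147 and 218 CPM. The log2 fold change was 1.67 (SE 0.16, adjusted p = 7.91e-15) and, corrected, 1.79 (SE 0.16, adjusted p = 3.47e-16). Its exon GC content of 45.0% is below the median of tested genes, 47.3%, so that its rise ran against the trend. In both genes the groups did not overlap.

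The feedback genes of the pathway were measured at lower depth or moved less. TIPARP, a member of the poly-ADP-ribose polymerase family, lowers AhR activity. It had 102, 104 and 108 CPM with DMSO and 134, 162 and 194 CPM with NNK, without overlap. It rose by 0.56 on the log2 scale (SE 0.14, adjusted p = 0.00161), and by 0.70 corrected (adjusted p = 0.00035). AHRR, the AhR repressor, had 1 count in each DMSO sample and 6, 3 and 3 counts in the NNK samples. Summed over the samples, its share of counts was 8.44 times higher with NNK (95% exact interval 2.28 to 46.6, counting error only). It passed in limma-voom (log2 fold change 2.62, adjusted p = 0.00788) but not with the correction (2.19, adjusted p = 0.136) or in DESeq2 (adjusted p = 0.0872).

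NQO1, the quinone reductase that both AhR and NRF2 raise, had 125 to 161 CPM in the DMSO samples and 219 to 239 CPM in the NNK samples. It rose by 0.68 on the log2 scale (SE 0.12, adjusted p = 8.64e-06) and by 0.82 corrected (adjusted p = 1.74e-07). ALDH3A1, an aldehyde dehydrogenase, had a log2 fold change of 0.85 that missed the threshold (adjusted p = 0.0548). It passed without NNK replicate 2, its lowest NNK sample (1.13, adjusted p = 0.0168), and was 0.26 corrected (adjusted p = 0.819). CYP1A2 had 1 count in 6 samples and was not tested. Of the 6 genes tested of the list of 7, 5 rose uncorrected and 4 rose corrected, against 9.87% and 0.62% of all genes, none fell, and the median was 1.26 and 1.31, against 0.0029 and -0.0063 over all genes.

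**Figure D2:**
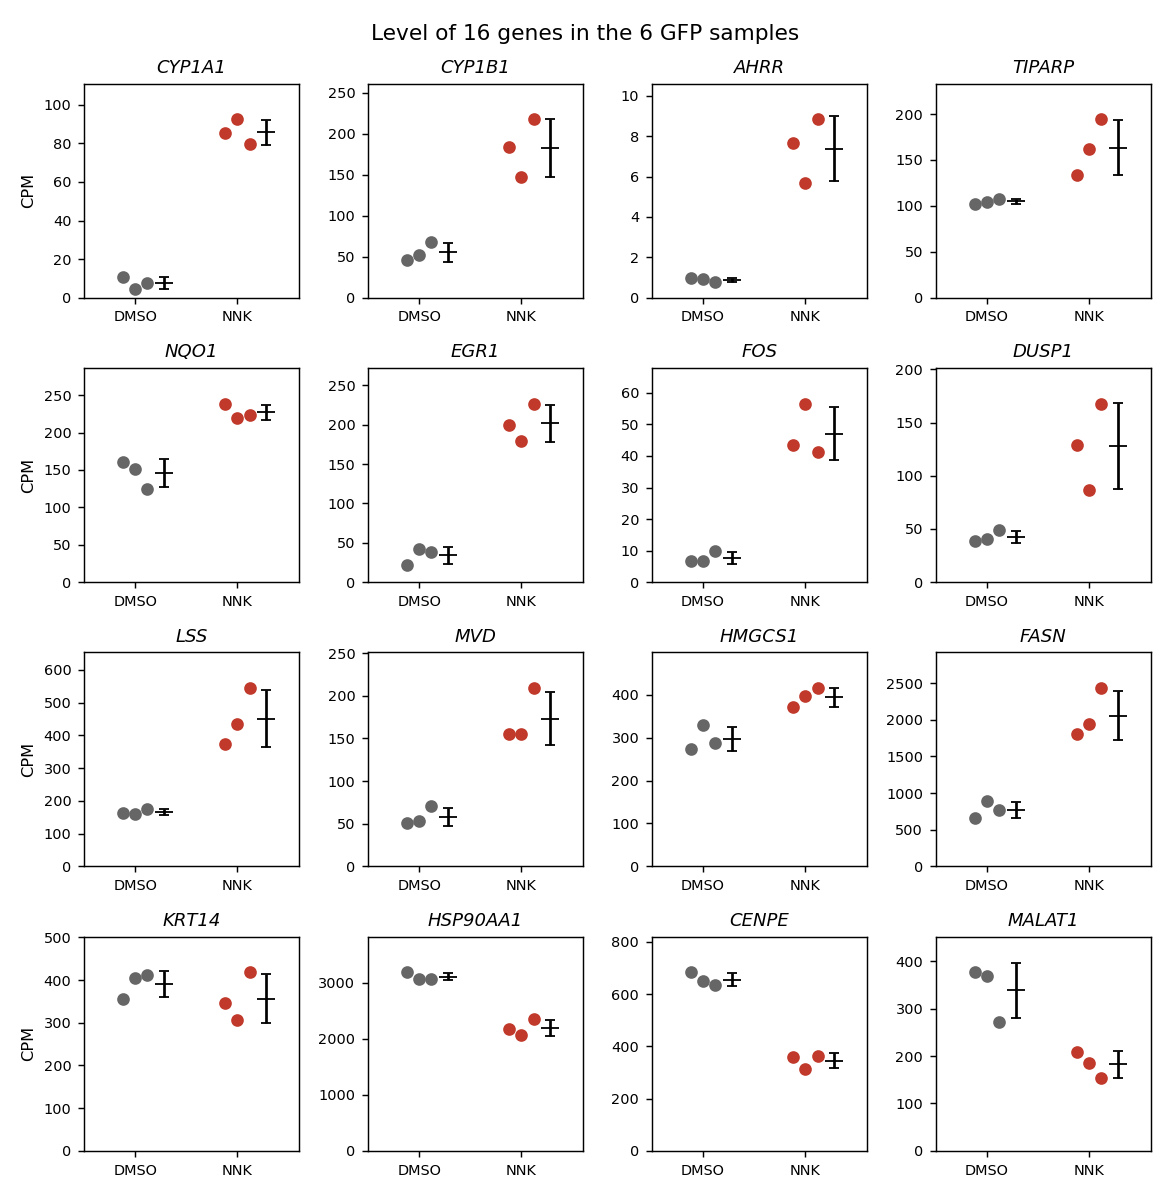
Level in CPM (vertical axes from 0) of 16 genes in the 3 DMSO (grey) and 3 NNK (red) GFP samples, with the mean ± SD of each group in black. The 3 NNK samples of CYP1A1, at 79.5 to 92.4 CPM, are all above the DMSO samples, at 4.74 to 10.5 CPM, and those of CENPE are all below them.

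Other genes that act on NNK itself did not pass. Of 12 P450 genes of the list for NNK activation, which includes CYP2A enzymes, only 4 were expressed enough to be tested and none passed with or without the correction. Of 16 genes for reduction of the NNK carbonyl group and conjugation of its alcohol NNAL, 8 were tested and none passed. Of 19 nicotinic and beta-adrenergic receptor genes 6 were tested and none passed, against 18.2% of all genes uncorrected. At this depth 3 counts in an NNK sample already amount to 3.87 CPM or more, so low levels of these genes were not detectable.

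EGR1 and FOS led the immediate early genes. EGR1, a zinc finger factor induced by serum and stress through ERK, had 22.0, 42.7 and 38.2 CPM with DMSO and 199, 179 and 227 CPM with NNK. Its rise was 2.55 on the log2 scale (SE 0.18, adjusted p = 2.4e-21) and 2.21 corrected (SE 0.18, adjusted p = 6.41e-18). FOS, a subunit of the AP-1 factor, had 7, 7 and 13 counts in DMSO and 34, 30 and 14 counts in NNK. Its level went from 6.64 to 9.94 CPM in DMSO to 41.2 to 56.6 CPM in NNK, without overlap (log2 fold change 2.54, SE 0.34, adjusted p = 1.01e-08, and 2.27 corrected, adjusted p = 6.69e-07).

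DUSP1, a phosphatase that switches off MAP kinases, rose by a log2 fold change of 1.48 (adjusted p = 5.36e-10) and 1.17 corrected (adjusted p = 1.19e-06), from 38.3 to 48.9 CPM to 86.8 to 168 CPM. DUSP4, another such phosphatase, rose by 1.25 (adjusted p = 8.66e-05) and 0.9951 corrected (adjusted p = 0.0113). Its corrected call was lost without DMSO replicate 3 (0.64, adjusted p = 0.224) or NNK replicate 3 (0.75, adjusted p = 0.202), the sample in which it was highest, at 109 CPM. MYC, a growth regulator, rose by 1.02 (adjusted p = 0.000246) and 0.81 corrected (adjusted p = 0.0217). Its corrected call was lost without DMSO replicate 1, DMSO replicate 2, NNK replicate 1 or NNK replicate 2, with values of 0.66, 0.78, 0.90 and 0.65.

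Of 21 tested genes of the early gene and ERK feedback list, 10 rose and 1 fell uncorrected, and 5 rose and none fell corrected, against 9.87% and 0.62% of all genes that rose. The median was 0.78 uncorrected and 0.36 corrected. The early genes called only without the correction were FOSL2, JUN, JUNB, JUND and IER2. JUND, an AP-1 subunit, was at 1.06 uncorrected (adjusted p = 5.8e-09) and 0.033 corrected (adjusted p = 0.953). JUNB, another, was at 0.60 uncorrected and -0.16 corrected (adjusted p = 0.813), and its uncorrected call was lost without DMSO replicate 1 (0.49), NNK replicate 1 (0.59) or NNK replicate 2 (0.44). JUN, at 0.70 and, corrected, 0.36, lost its uncorrected call without DMSO replicate 3 (0.60) or NNK replicate 2 (0.61). SPRED1, an inhibitor of ERK signalling, fell by 0.83 uncorrected (adjusted p = 0.029) and was at -0.41 corrected (adjusted p = 0.603). The uncorrected call was lost without DMSO replicate 2 (-0.74), DMSO replicate 3 (-0.63), NNK replicate 2 (-0.45) or NNK replicate 3 (-0.90).

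The list of cAMP response genes shares FOS and DUSP1 with the early genes. Of its 12 tested members 5 rose uncorrected (NR4A1, NR4A2, PER1, FOS and DUSP1) and 2 rose corrected (FOS and DUSP1), against 9.87% and 0.62% of all genes. NR4A1, an orphan nuclear receptor, had 4, 1 and 2 counts in DMSO and 8, 2 and 3 in NNK, and its CPM overlap between the groups. It was at 1.87 uncorrected and 1.27 corrected (adjusted p = 0.438), and its uncorrected call (adjusted p = 0.037) was lost without DMSO replicate 2 (1.57), DMSO replicate 3 (1.73), NNK replicate 1 (1.53) or NNK replicate 3 (1.79). NR4A2, a related receptor, was at 1.63 uncorrected (adjusted p = 0.0125) and 1.57 corrected (adjusted p = 0.083), so that the call was lost with the correction at a fold change about as large. The uncorrected call was lost without DMSO replicate 3 (1.40) or NNK replicate 3 (1.35). The 7 tested ligands of the EGF receptor did not pass in either fit.

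Genes of cholesterol synthesis rose in both fits. Of 25 genes of the list, which holds the enzymes of the mevalonate and sterol pathway and other SREBP2 targets, 15 rose and 1 fell uncorrected, against 9.87% and 8.32% of all genes. With the correction 12 rose and none fell, against 0.62% of all genes that rose, and the median log2 fold change was 0.40 uncorrected and 0.50 corrected. LSS, lanosterol synthase, had 165, 159 and 175 CPM with DMSO and 375, 434 and 545 CPM with NNK. Its log2 fold change was 1.36 (SE 0.10, adjusted p = 1.23e-19) and 0.93 corrected (SE 0.10, adjusted p = 1.11e-11). The lowest NNK sample of LSS was above 2 times the highest DMSO sample.

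Early and late enzymes of the pathway both rose. HMGCS1, a synthase of the early mevalonate pathway, had 273 to 328 CPM with DMSO and 371 to 415 CPM with NNK. With an exon GC content of 40.3% it lies among the genes that mostly fell, and its log2 fold change was 0.40 (adjusted p = 0.000751) uncorrected and 0.70 (SE 0.091, adjusted p = 1.59e-08) corrected. MSMO1, a sterol methyl oxidase, was at 0.26 (adjusted p = 0.0919) uncorrected and 0.59 (adjusted p = 0.00023) corrected, and it passed uncorrected without NNK replicate 1 (0.49), its lowest NNK sample, which lies within the DMSO range.

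MVD, mevalonate decarboxylase, rose by 1.505 uncorrected (adjusted p = 5.03e-13) and 0.78 corrected (adjusted p = 0.000383), from 50.8 to 70.3 CPM to 155 to 209 CPM. DHCR7, SQLE and CYP51A1, all enzymes of the sterol branch, were at 1.17, 0.39 and 0.34 uncorrected and at 0.74, 0.63 and 0.62 corrected, and all 3 passed in both fits. EBP, a sterol isomerase, was at 0.83 uncorrected and 0.60 corrected and lost the corrected call without NNK replicate 3 (0.53, adjusted p = 0.0547). TM7SF2, a sterol reductase, had 7.66, 22.8 and 16.1 CPM with DMSO and 40.8, 56.6 and 61.8 CPM with NNK. Its log2 fold change of 1.77 became 1.07 with the correction (adjusted p = 0.0249), a call lost without DMSO replicate 1 (0.72), NNK replicate 2 (0.98) or NNK replicate 3 (0.999).

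The regulators SREBF2 and INSIG1 did not pass with the correction. SREBF2, which encodes SREBP2, was at 0.61 uncorrected (adjusted p = 2.03e-06) and 0.14 corrected (adjusted p = 0.616). INSIG1, which retains SREBP in the endoplasmic reticulum, was at -0.065 and 0.092 and did not pass. STARD4, a cholesterol carrier, was the 1 member that fell uncorrected (-0.50, adjusted p = 0.0102). It was at -0.026 corrected, and its call was lost without NNK replicate 1 (-0.52) or NNK replicate 3 (-0.38).

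Some genes of fatty acid synthesis rose as well. FASN, fatty acid synthase, had 664, 886 and 765 CPM with DMSO and 1799.8, 1935 and 2431 CPM with NNK. Its log2 fold change was 1.35 (SE 0.060, adjusted p = 8.29e-35) and 0.53 corrected (SE 0.054, adjusted p = 9.94e-13), and its exon GC content is 65.2%. FADS2, a desaturase, was at 1.15 and 0.66, ACLY, which makes cytosolic acetyl-CoA, at 0.77 and 0.54, and SCD, stearoyl-CoA desaturase, at 0.17 and 0.24, and all 3 passed in both fits. Of the 10 genes of the SREBP1 list 5 rose and 1 fell (ACSL3) uncorrected and 5 rose and none fell corrected, against 9.87% and 0.62% of all genes that rose, with medians of 0.22 and 0.086. SREBF1 itself was at 0.39 uncorrected (adjusted p = 0.0215) and at -0.28 corrected (adjusted p = 0.318). Its uncorrected call was lost without DMSO replicate 1 (0.32), DMSO replicate 3 (0.35), NNK replicate 1 (0.37) or NNK replicate 3 (0.35).

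ME1, a source of NADPH that the NRF2 and SREBP1 lists share, passed only with the correction (0.27 uncorrected, adjusted p = 0.218, and 0.59 corrected, adjusted p = 0.0175), a call lost without DMSO replicate 1 (0.52), NNK replicate 2 (0.55) or NNK replicate 3 (0.54). Of 22 tested NRF2 targets 8 rose and 2 fell uncorrected and 4 rose and none fell corrected (NQO1, PGD, ME1 and FTL), with medians of 0.21 and 0.13. Of all genes 9.87% rose and 8.32% fell uncorrected and 0.62% rose corrected. PGD, of the pentose phosphate pathway, was at 0.66 uncorrected and 0.43 corrected and lost the corrected call without NNK replicate 3 (0.35). FTL, ferritin light chain, was at 0.79 uncorrected and 0.51 corrected and lost the corrected call without NNK replicate 1 (0.42). HMOX1, heme oxygenase 1 and a common marker of NRF2 activity, had 9, 4 and 3 counts in DMSO and 2, 1 and 3 in NNK, too few for a statement.

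**Figure D3:**
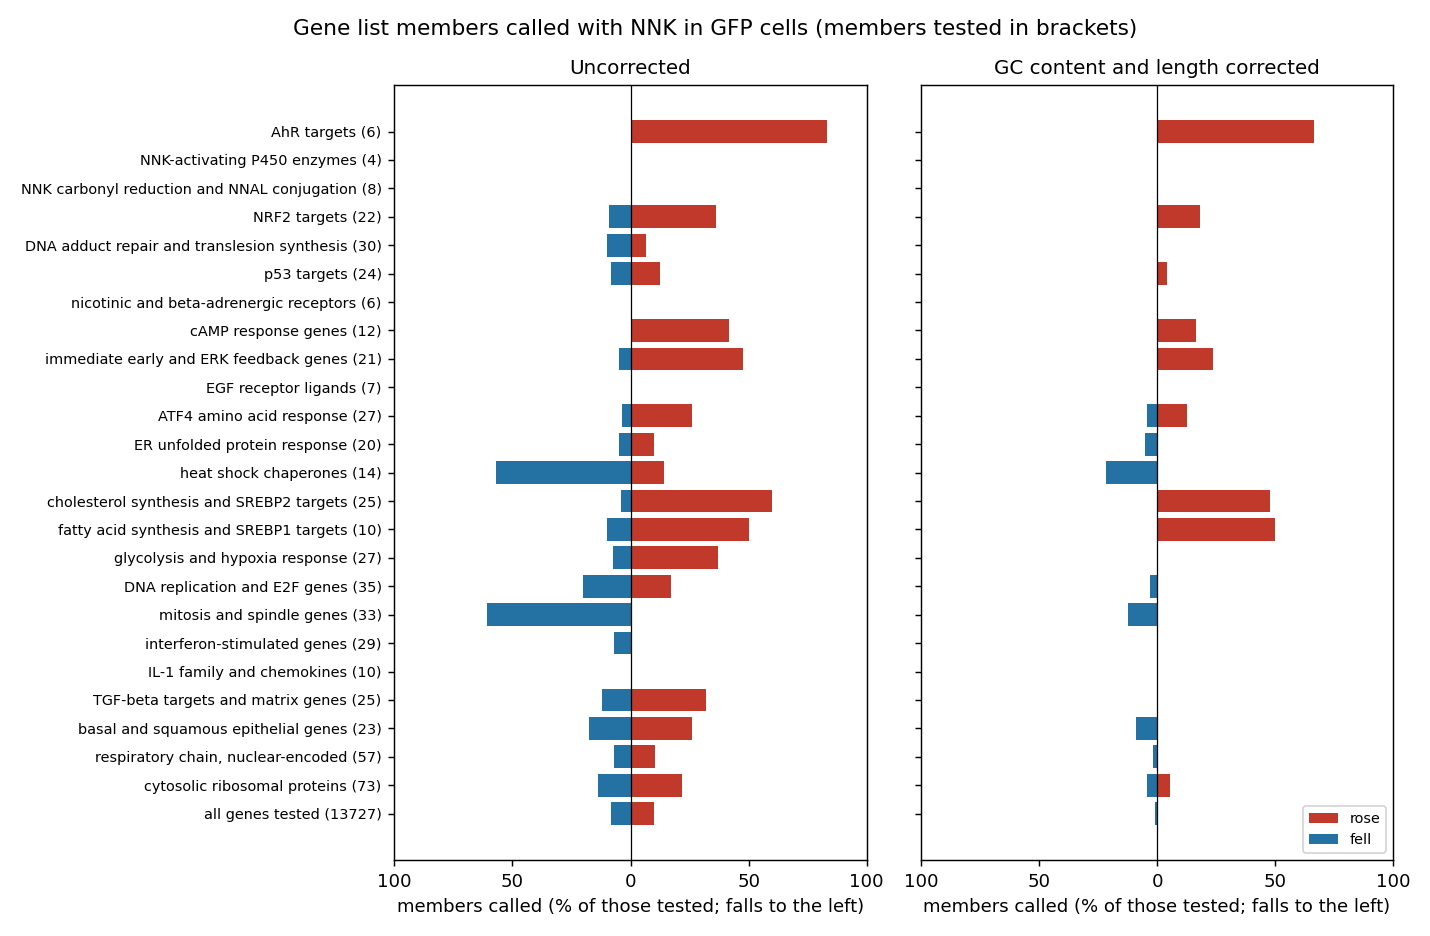
Share of tested members of 24 gene lists that rose (red, to the right) or fell (blue, to the left) with NNK in GFP cells, in percent of the members tested, uncorrected on the left and corrected for GC content and length on the right, with all genes at the bottom. The AhR, early gene, cholesterol and fatty acid lists keep rises in both panels, while glycolysis, matrix and DNA repair genes have none with the correction.

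Genes of the DNA damage response did not move as a group. Of 30 tested genes for repair of DNA adducts and translesion synthesis, 2 rose and 3 fell uncorrected, where 18.2% of all genes passed, and none passed corrected, where 1.59% of all genes did, and the median was -0.024 and -0.039. Those that fell uncorrected include MSH6, a mismatch repair protein, and POLK, a translesion polymerase, and those that rose were DDB1 and MAD2L2. MSH6 was at -0.34 uncorrected and -0.18 corrected, POLK at -0.54 and -0.21, DDB1 at 0.27 and 0.20, and MAD2L2 at 0.73 and 0.048. Without NNK replicate 1 the calls of MSH6 (-0.26), POLK (-0.39) and DDB1 (0.080) were lost. DDB1 was also lost without DMSO replicate 3 (0.23) or NNK replicate 2 (0.28), and MAD2L2 without DMSO replicate 1 (0.63), NNK replicate 2 (0.65) or NNK replicate 3 (0.65).

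Of 24 p53 targets 3 rose and 2 fell uncorrected and 1 rose corrected, while of all genes 9.87% rose and 8.32% fell uncorrected and 0.62% rose corrected. The gene that rose in both fits was CDKN1A, the cell cycle inhibitor p21, which had 168 to 209.5 CPM with DMSO and 338 to 374 CPM with NNK. Its log2 fold change was 0.91 (SE 0.10, adjusted p = 1.02e-11) and 0.46 corrected (adjusted p = 0.00176), a call lost without NNK replicate 1 (0.41, adjusted p = 0.0703). GDF15, a stress cytokine, had 1, 4 and 2 counts in DMSO and 6, 3 and 4 in NNK. It passed uncorrected (1.92, adjusted p = 0.0274) but not corrected (1.39, adjusted p = 0.366), in edgeR's quasi-likelihood test (adjusted p = 0.0575) or without DMSO replicate 1 (1.63), DMSO replicate 3 (1.78), NNK replicate 1 (1.95) or NNK replicate 3 (1.75). FDXR also rose uncorrected (0.99, and 0.40 corrected), and PMAIP1 (-0.95, and -0.66 corrected) and ZMAT3 (-0.64, and -0.36 corrected) fell. None of them passed corrected. Of the 6 uncorrected fits without 1 sample, FDXR passed in 1, PMAIP1 in 2 and ZMAT3 in 4. The median of the p53 list was 0.12 uncorrected and -0.077 corrected.

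Some chaperones fell in both fits. HSP90AA1, the inducible HSP90, had 3185, 3069 and 3069 CPM with DMSO and 2182, 2063 and 2349 CPM with NNK. On the log2 scale the change was -0.51 (SE 0.037, adjusted p = 7.61e-21) and -0.40 corrected (SE 0.036, adjusted p = 3.46e-15), without overlap between the groups. HSPA8, the constitutive HSC70, was at -0.42 and -0.48, and HSP90AB1 at -0.21 and -0.26, and both passed in both fits. Of 14 tested chaperone genes 8 fell and 2 rose (HSPB1 and HSF1) uncorrected and 3 fell corrected, against 8.32% and 0.969% of all genes that fell, with medians of -0.41 and -0.27.

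Genes of mitosis fell mostly in the uncorrected fit. Of 33 genes 20 fell and none rose uncorrected, and 4 fell corrected (CENPE, CENPF, TOP2A and MKI67), against 8.32% and 0.969% of all genes that fell, with medians of -0.39 and -0.19. Their median exon GC content was 41.9%, below the 47.3% of all tested genes. CENPE, a kinesin of the kinetochore, had 635 to 683 CPM with DMSO and 313 to 362 CPM with NNK, and its log2 fold change was -0.92 (adjusted p = 2.01e-15) and -0.44 corrected (adjusted p = 0.000183). TOP2A, topoisomerase II alpha, was at -0.51 and -0.16 (corrected adjusted p = 0.032), and the corrected call was lost without DMSO replicate 1 (-0.12), DMSO replicate 2 (-0.14), NNK replicate 1 (-0.19), NNK replicate 2 (-0.14) or NNK replicate 3 (-0.15). Of 35 replication genes 6 rose and 7 fell uncorrected and 1 fell corrected, while of all genes 9.87% rose and 8.32% fell uncorrected and 0.969% fell corrected. The one that fell corrected was RRM2, a ribonucleotide reductase subunit, at -0.44 and -0.53. DEK, a chromatin protein outside the lists, was at -0.81 and -0.43, and SMC4, a condensin subunit, at -0.80 and -0.45.

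Epithelial genes moved in both directions without the correction. Of 23 basal and squamous genes 6 rose and 4 fell uncorrected, against 9.87% and 8.32% of all genes, and 2 fell corrected, against 0.969%. The 2 were KRT14 and DSP, which encodes desmoplakin of the cell junction. KRT14, the basal cell keratin, had 356 to 411 CPM with DMSO and 306 to 418 CPM with NNK, which overlap, and its log2 fold change of -0.17 did not pass (adjusted p = 0.191). With the correction it was -0.67 (SE 0.089, adjusted p = 2.21e-08), so that its fall passed only with the correction, and its exon GC content is 59.1%. DSP was at -0.16 in both fits, and its corrected call was lost without DMSO replicate 1 (-0.10) or NNK replicate 3 (-0.12). None of 5 tested secretory genes, 10 interleukin 1 family and chemokine genes or 6 metallothioneins passed in either fit.

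Beside the following counts, 9.87% of all genes rose and 8.32% fell uncorrected, and 0.62% rose and 0.969% fell corrected. The lists that carried rises only without the correction include glycolysis and hypoxia (10 rose and 2 fell of 27, then none) and TGF-beta targets and matrix genes (8 rose and 3 fell of 25, then none of 23). Of 73 ribosomal protein genes 16 rose and 10 fell, then 4 rose and 3 fell. Of 57 respiratory chain genes 6 rose and 4 fell, then 1 fell, shares close to those of all genes. Of 27 genes of the ATF4 amino acid response 7 rose and 1 fell, then 3 rose and 1 fell of the 24 with a GC content. The 3 were SLC7A5, SLC3A2 and PHGDH, transporters of large amino acids and the first enzyme of serine synthesis, and the 1 that fell was ATF4 itself (-0.16 uncorrected, adjusted p = 0.444, -0.60 corrected, adjusted p = 0.00239, and -0.45 without NNK replicate 2, adjusted p = 0.127). Those that rose were at 0.81, 0.58 and 0.68 uncorrected and at 0.17, 0.32 and 0.45 corrected. The corrected call of SLC7A5 was lost without DMSO replicate 1 (0.11), DMSO replicate 3 (0.16), NNK replicate 1 (0.20), NNK replicate 2 (0.15) or NNK replicate 3 (0.16). That of PHGDH was lost without NNK replicate 1 (0.41), and that of SLC3A2 without DMSO replicate 1 (0.30), DMSO replicate 3 (0.30), NNK replicate 2 (0.33) or NNK replicate 3 (0.25). Of 20 unfolded protein response genes 2 rose and 1 fell, then 1 fell, and of 29 interferon-stimulated genes 2 fell, then none of 28. Of 28 clustered histone genes 11 rose and 2 fell, and since only 1 has an exon GC content the correction is void for them.

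Among nuclear noncoding RNAs, NEAT1, the scaffold of paraspeckles, rose from 1553 to 2187 CPM to 2517 to 2689 CPM (0.53, adjusted p = 1.22e-13, and 0.60 corrected, adjusted p = 1.76e-16). MALAT1, a speckle RNA, fell from 271 to 376 CPM to 153 to 209 CPM (-0.81, adjusted p = 1.82e-07, and -0.61 corrected, adjusted p = 0.000383). RPPH1, the RNA of ribonuclease P, had the smallest p of all genes, at 2272, 2784 and 2498 CPM with DMSO and 4580.4, 4834 and 5351 CPM with NNK (0.93, SE 0.035, adjusted p = 1.65e-40). It has no exon GC content in the annotation used, so no corrected value can be given. RMRP, another RNA of this list, was at 0.60 uncorrected (adjusted p = 9.5e-13) and at 0.083 corrected, where it did not pass. The part of the GC trend in the rise of RPPH1 was not tested. In the fit of all 95 samples NEAT1 missed the threshold (0.52, adjusted p = 0.108).

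The naming rule took the 15 largest rises among genes whose groups did not overlap and whose count averaged 10 or more, which were CYP1A1, EGR1, FOS, RAB40C, PDLIM4, TM7SF2, FUK, DGAT1, CYP1B1, SECTM1, FAAH, UNC93B1, MIIP, MVD and TELO2. Of the 14 with a GC content, all except CYP1B1 are above the median GC content of all genes, and CYP1A1, EGR1, FOS, PDLIM4, TM7SF2, CYP1B1 and MVD passed with the correction. PDLIM4, an actin-associated LIM protein, had 11, 6 and 14 counts in DMSO and 25, 20 and 12 in NNK, and was at 1.94 and 1.37, the latter a call lost without DMSO replicate 2 (1.09) or NNK replicate 2 (1.31). The 15 largest falls include MAK, SNORD79, LOC389831, HMGN5, CCDC39, PSMC3IP, TAMM41, CLK4, LINC01355, ZNF737, PHF7, SCLT1, MITD1 and MBLAC2, of which PSMC3IP and ZNF737 passed with the correction. PSMC3IP was at -1.53 and -1.58 (corrected adjusted p = 0.0397), and its corrected call was lost without DMSO replicate 1 (-1.50), DMSO replicate 2 (-1.47), NNK replicate 1 (-1.59), NNK replicate 2 (-1.62) or NNK replicate 3 (-1.54). Its uncorrected call was lost without NNK replicate 1 (-1.55). ZNF737 was at -1.41 and -1.04 (corrected adjusted p = 0.0301), and its corrected call was lost without DMSO replicate 1 (-0.96), DMSO replicate 2 (-1.02), NNK replicate 1 (-1.35), NNK replicate 2 (-0.86) or NNK replicate 3 (-0.98).

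The design asks whether other lines answered NNK in the same way and whether its effect differed from that of BaP or CSC. HcRed is the other control line and shares no sample with the GFP line. In HcRed cells 2254 of 13735 genes (16.4%) passed uncorrected, 9.5% of genes higher and 6.91% lower, and 173 of 12931 (1.34%) passed corrected, 0.766% higher and 0.572% lower. Of the 13168 genes tested in both lines 1335 passed in both in the same direction and none in opposite directions, which is 53.7% of the GFP calls and 59.7% of the HcRed calls. Of all genes tested in both, 75.4% had the same sign. The HcRed NNK samples shared the GC trend, at 0.36 to 0.40 log2 CPM per 10 percentage points, and its part in this overlap was not tested. With the correction 72 genes passed in both in the same direction and none in opposite directions, 35.1% of the GFP calls and 41.9% of the HcRed calls. Of all genes tested in both with the correction, 60.8% had the same sign. The 72 include CYP1A1, CYP1B1, TIPARP, NQO1, EGR1, FOS, DUSP1, DUSP4, MYC, LSS, MVD, HMGCS1, SQLE, DHCR7, FASN, SCD, NEAT1 and CDKN1A among those that rose. Among those that fell they include KRT14, MALAT1, HSP90AA1, HSPA8, DEK, SMC4, CENPF, TOP2A and MKI67.

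A test of the difference between the lines found 1 gene of 13877 (0.00721%) that differed from HcRed, RPPH1, whose NNK effect was larger in GFP cells by 0.35 on the log2 scale (SE 0.059, adjusted p = 0.000533). With the correction it found 1 of 13046 (0.00767%), NEAT1, with a difference of -0.33 (adjusted p = 0.0122), a smaller effect in GFP cells, and of -0.31 uncorrected (adjusted p = 0.111). The intervals of the difference were wide for the induced genes. That of CYP1A1 was -1.87 (95% interval -3.45 to -0.29, adjusted p = 0.971), and the HcRed DMSO samples had only 2, 0 and 0 counts of it, so its fold change there depends on the prior count. For EGR1 the difference was -0.041 (-0.52 to 0.43), for FOS -0.33 (-1.25 to 0.60), for CYP1B1 0.23 (-0.17 to 0.62) and for LSS 0.070 (-0.25 to 0.39).

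Against the mean effect in the other 7 lines, in 1 fit of 48 samples, 3 of 14387 genes differed (0.0209%), 2 higher (0.0139%) and 1 lower (0.00695%). RPPH1 (0.52, adjusted p = 0.00847) and FASN (0.45, SE 0.090, adjusted p = 0.0119) rose more in GFP cells, and DEK fell more (-0.36, adjusted p = 0.00847). With the correction no gene differed, with FASN at 0.24 (adjusted p = 0.561) and DEK at -0.25 (adjusted p = 0.379). The count was 0 without DMSO replicate 1, NNK replicate 2 or NNK replicate 3 and 1 without DMSO replicate 3. For CYP1A1 the difference was 0.31 (95% interval -0.43 to 1.06), for EGR1 0.16 (-0.33 to 0.65) and for LSS 0.34 (0.10 to 0.59, adjusted p = 0.438).

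Side by side, the corrected log2 fold change of CYP1A1 in this fit was 3.25 in GFP cells and 1.89 to 5.18 in the other lines, and it passed in all 7. That of EGR1 was 2.19 against 1.58 to 2.77, that of FOS 2.25 against 1.62 to 2.63, and that of LSS 0.91 against 0.49 to 0.91, each called in all 7. HMGCS1 was at 0.68 against 0.51 to 1.22 and was called in all 7, and FASN at 0.54 against 0.13 to 0.57 and was called in 5. Of the 25 cholesterol genes 11 rose in GFP cells in this fit and 9 to 16 rose in the other lines, and none fell in any line. TIPARP passed in all 7 other lines, NQO1 in 3, and MALAT1 fell in 6.

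**Figure D4:**
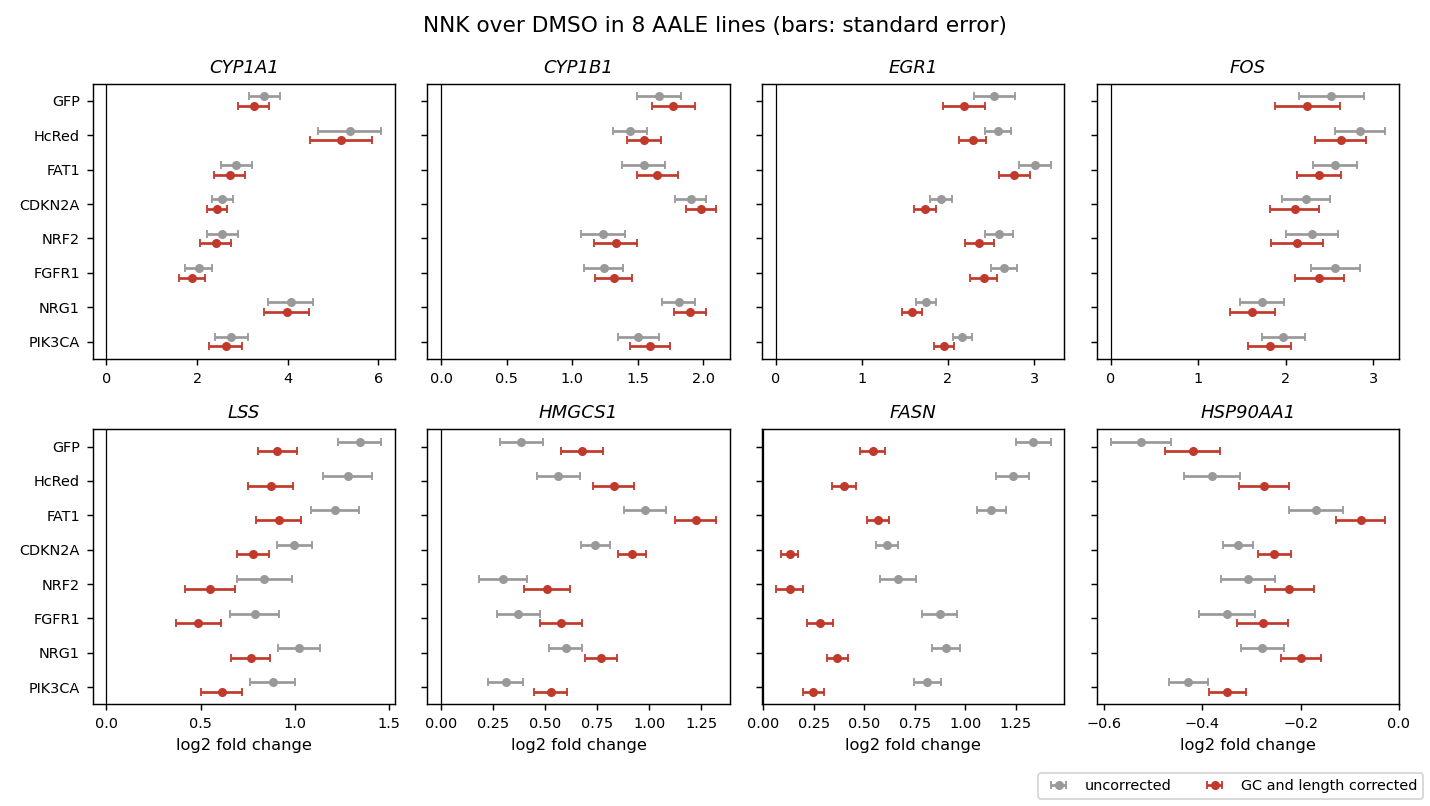
Log2 fold change of NNK over DMSO (horizontal axes) with its standard error for 8 genes in the 8 AALE lines (rows), 3 samples per group, uncorrected in grey and corrected for GC content and length in red. CYP1A1, CYP1B1, EGR1, FOS, LSS and HMGCS1 lie to the right of zero in all lines in both fits, and the fold change of FASN is smaller in every line with the correction.

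NNK was compared directly with the other compounds in the same GFP cells, at the 1 dose used of each. The doses differ, 490 μM for NNK, 173 μM for BaP and 24 μg/ml for CSC, so the levels describe these exposures only. CSC and BaP gave far more CYP1A1 than NNK did. Its level was 79.3 to 93.1 CPM with NNK, 380 to 389 CPM with BaP and 413 to 547 CPM with CSC, with DMSO at 4.80 to 10.6 CPM. The log2 difference of NNK from CSC was -2.49 (SE 0.15, adjusted p = 1.7e-33) and from BaP -2.13 (SE 0.15, adjusted p = 1.68e-22), and -2.51 and -2.16 with the correction. CYP1B1 was at 148 to 217 CPM with NNK, 690 to 730 CPM with BaP and 709 to 819 CPM with CSC, a difference of -2.05 from CSC and -1.96 from BaP, and of -2.01 and -1.91 with the correction.

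In NNK against CSC 210 genes (1.52%) differed, 95 higher (0.686%) and 115 lower (0.831%) with NNK, and with the correction 191 (1.47%), 74 higher (0.569%) and 117 lower (0.899%). In NNK against BaP 112 genes (0.844%) differed, 75 higher (0.565%) and 37 lower (0.279%), and with the correction 53 (0.423%), 29 higher (0.232%) and 24 lower (0.192%). The CSC count was 105 without NNK replicate 1 and 126 without NNK replicate 2, and the BaP count 57 without BaP replicate 1 and 66 without NNK replicate 2. Of the AhR list 5 genes were lower with NNK than with CSC and than with BaP in both fits (CYP1A1, CYP1B1, TIPARP, NQO1 and ALDH3A1), and none was higher. Of the NRF2 list 9 of 23 were lower with NNK than with CSC in each fit and 8 of 22 were lower than with BaP in each fit, among them GCLM, GCLC, TXNRD1 and SRXN1, and none was higher.

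The sterol genes had the opposite order. LSS was at 378, 437 and 543 CPM with NNK, 243 to 282 CPM with BaP and 212 to 232 CPM with CSC, against 161 to 176 CPM with DMSO. Its log2 difference was 0.96 from CSC (adjusted p = 8.26e-17) and 0.72 from BaP (adjusted p = 2.09e-07), and 0.91 and 0.62 with the correction. HMGCS1 was at 374 to 414 CPM with NNK, 290 to 331 CPM with BaP, 215 to 261 CPM with CSC and 275 to 332 CPM with DMSO. Of the 25 cholesterol genes 13 were higher with NNK than with CSC in each fit and none lower, and 9 were higher than with BaP (7 corrected) and none lower.

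FASN was at 1813 to 2425 CPM with NNK, 832 to 1090 CPM with BaP and 1560 to 1718 CPM with CSC. Its difference from BaP was 1.08 (adjusted p = 7.42e-28), and 0.84 corrected, and its difference from CSC was 0.28, and 0.17 corrected (adjusted p = 0.00388). SCD, which makes monounsaturated fatty acids, was higher with NNK than with BaP by 0.60 (adjusted p = 1.07e-22) and than with CSC by 0.20 (adjusted p = 1.67e-06), and by 0.63 and 0.23 with the correction. The SREBP1 list was mixed against CSC, with 4 of 10 genes higher and 2 lower with NNK in each fit. Those lower in the corrected fit were ACSL3 and SREBF1, and the corrected median was 0.0014. Against BaP 5 of 10 were higher (4 corrected) and 0 lower.

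For EGR1 and FOS no difference between the compounds passed, and of the 22 early genes tested FOSL1, PHLDA1 and JUNB were lower with NNK than with CSC in the corrected fit. EGR1 was at 180 to 226 CPM with NNK, 137 to 181 CPM with BaP and 158 to 225 CPM with CSC. Its difference was -0.022 from CSC (95% interval -0.25 to 0.20) and 0.36 from BaP (0.10 to 0.62, adjusted p = 0.266). FOS was at 41.1 to 57.0 CPM with NNK, 17.0 to 30.6 CPM with BaP and 28.5 to 39.4 CPM with CSC, so that the NNK samples were the highest, and its difference from BaP was 0.90 (0.34 to 1.46, adjusted p = 0.145). KRT14 was higher with NNK than with CSC (0.61, adjusted p = 8.36e-07) and than with BaP (0.95, adjusted p = 9.62e-10), and by 0.57 and 0.88 with the correction.

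By the naming rule the 5 genes with the largest excess of NNK over CSC were AMOT, PHACTR3, E2F2, TXNIP and LINC00342. The 5 with the largest deficit were ABCA1, CYP1A1, SNORD41, SNORA57 and SNORD104. Against DMSO none of the 5 excess genes passed in either fit (uncorrected -0.0023, -0.15, 0.72, -0.18 and 0.47 in that order). Of the deficits, ABCA1 (-0.90, adjusted p = 0.0898) and SNORA57 (-0.83) passed against DMSO in neither fit. SNORD41 (-1.81) and SNORD104 (-1.63) fell against DMSO in the uncorrected fit only. ABCA1, the exporter of cholesterol, differed by -3.12 (SE 0.34, adjusted p = 3.24e-13), and -3.11 corrected. TXNIP, an inhibitor of thioredoxin and glucose uptake, differed by 1.10 (adjusted p = 4.17e-14), and 1.1202 corrected. Against BaP the largest excesses were SHROOM2, SPTB, TM7SF2, FASN and PFKFB4 and the largest deficits CYP1A1, CYP1B1, TMEM267, FSD1L and ALDH3A1. Of these, SHROOM2, SPTB and PFKFB4 rose and FSD1L fell against DMSO in the uncorrected fit only. TMEM267 and ALDH3A1 passed against DMSO in neither fit. The comparisons with CSC and BaP are against other exposed samples, which share much of the GC trend with NNK.

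**Figure D5:**
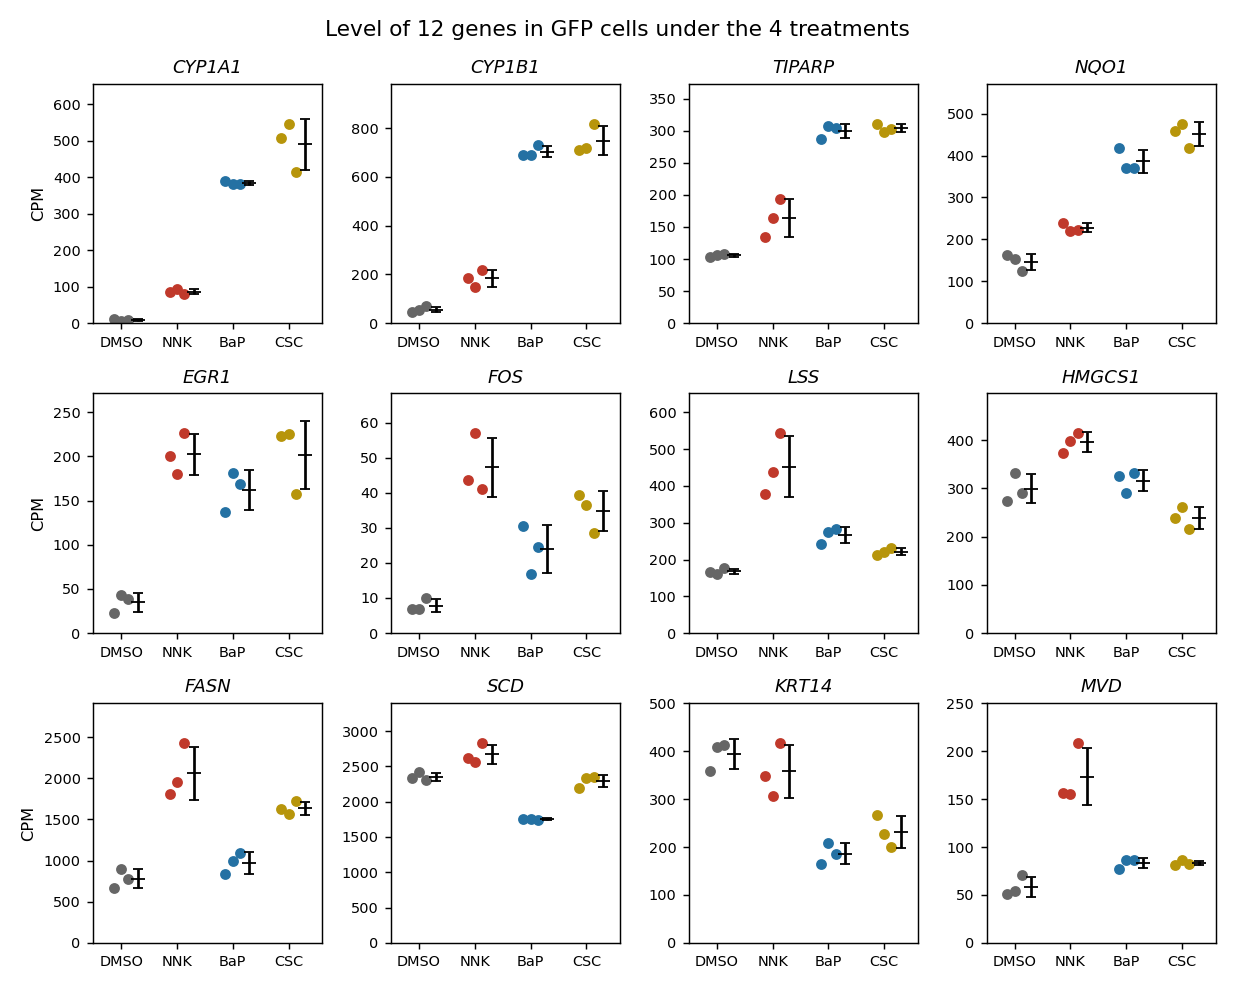
Level in CPM (vertical axes from 0) of 12 genes in GFP cells under DMSO, NNK, BaP and CSC, 3 samples each, with the mean ± SD in black. CYP1A1, CYP1B1, TIPARP and NQO1 are highest with BaP and CSC and intermediate with NNK, while LSS, HMGCS1 and FASN are highest with NNK.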

How the data were processed

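SFL libraries of 95 AALE samples, 3 per combination of line and treatment in all but 1, were barcoded and pooled for sequencing. The authors trimmed reads with Cutadapt 1.12, aligned them to hg19 with STAR 2.5.2b and used featureCounts to assign them to RefSeq genes, per the labels and the study's methods. The deposited values are raw counts, 1 whole number per gene and sample, with no molecular identifiers. The exact interval given for AHRR covers counting error only. The intervals of differences between lines and treatments come from the standard errors of the fits, which include the spread between samples. Whether the counting used strand is not given in the sources used here, and overlapping or near-identical genes may share reads.

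The counts were normalized by TMM (edgeR 4.0.16, R 4.3.3) and tested with limma 3.58.1 on voom values over only the samples compared, 2-sided, with Benjamini-Hochberg adjustment over all genes with a mean count above 1 and a threshold of 0.05. CPM are counts relative to the library total multiplied by its TMM factor. GFP levels of 2 treatments and of 4 treatments were scaled in separate sets. Differences between lines and treatments are contrasts of 1 fit. Exon GC content and length came from GENCODE genes on GRCh37, with a value for 94.0% of the genes tested, and the correction removed a loess trend (span 0.3) from each sample's log2 values before the fit. Scripts were tested on simulated data.

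The members and the 30 gene lists, written from general knowledge, were chosen with earlier results of these data known. Genes are named when they are list members, the 15 largest rises or falls among genes that average 10 counts and whose groups do not overlap, the 10 smallest p in each direction, or the 5 largest differences in each direction between lines or treatments. PLEC, DEK and SMC4 come from the rule on p, and genes beyond the rule are named as such. Some genes that the rule takes are not reported here. As alternatives the comparison was run with DESeq2 1.42.0 (Wald test), with its size factors, with the quasi-likelihood test of edgeR, with other filters, with larger fits, with a replicate block and without each sample in turn. The correction for differences between lines and treatments and the leaving out of samples within the corrected fit were chosen after seeing the data.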

Additional observations from a re-analysis of the deposited data

Results flagged for a closer look

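The NNK effect differed between lines by a test of the difference for 4 genes, RPPH1, FASN and DEK without the correction for GC content and NEAT1 with it. RPPH1, the RNA of ribonuclease P, rose more in GFP cells than in HcRed cells, by 0.35 on the log2 scale, and more than in the other 7 lines on average, by 0.52. FASN rose more in GFP cells than in the other 7 lines on average, by 0.45, and DEK differed by -0.36, a larger fall in GFP cells. NEAT1 differed from HcRed cells by -0.33 with the correction, a smaller rise in GFP cells, and did not pass without it (-0.31, adjusted p = 0.111). FASN and DEK did not pass with the correction (0.24 and -0.25), and RPPH1 has no GC content, so that it could not be corrected. The GC trend of the GFP NNK samples, 0.38 to 0.45 log2 CPM per 10 percentage points, was at or above most of that of the other lines' NNK samples (0.17 to 0.40, median 0.28), and its part in these differences was not tested. No group had more than 3 samples here, so a single sample far from the others was not looked for.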

How the results depend on the processing

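For NNK versus DMSO in GFP cells the count of 2497 genes was 939 in DESeq2, 205 with the correction for GC content and length, and 434 with that correction and a replicate block, and it was 1692 to 2356 without 1 sample. Within the corrected fit it was 143, 164 and 214 without DMSO replicates 1, 2 and 3 and 99, 115 and 135 without NNK replicates 1, 2 and 3. The difference from HcRed (1 gene) gave 2 in edgeR, 0 in DESeq2, 0 with all genes that had a read, 2 with a replicate block and 0 to 3 without 1 sample. The difference from the other 7 lines (3 genes) gave 5 in edgeR, 0 in DESeq2, 0 with all genes that had a read, 0 corrected and 0 to 4 without 1 sample. NNK against CSC (210 genes) gave 75 in DESeq2, 353 with a replicate block and 105 to 234 without 1 sample. NNK against BaP (112 genes) gave 33 in DESeq2, 427 with a replicate block, 53 corrected and 57 to 141 without 1 sample. The cause of these changes was not tested. Same-numbered GFP NNK and DMSO samples correlated by 0.0072 to 0.047 in their deviations from the group mean (mean 0.032). The mean for different numbers, -0.016, is no separate comparison, because deviations from a group mean sum to 0. These values cannot decide whether the numbers pair samples, and the main fits do not pair them. With the replicate block the main count was 3234.

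Of 111 genes followed, 106 kept their direction in every setting that was run for them. The corrected fits without 1 sample were run only for the 56 called with the correction. RPPH1, FUK and LOC389831 have no GC content and so had no corrected fit. Many of the genes were named because they were called in these same samples, so a kept direction is no independent support. Under the correction PLEC went to -0.21, JUNB to -0.16 and SREBF1 to -0.28, and SLC7A11 went from -0.44 to 0.016. With the correction and the replicate block PLEC was at -0.23, JUNB at -0.14, SREBF1 at -0.30 and EEF2 at -0.023. In the corrected fits without 1 sample PLEC was at -0.17, -0.16, -0.31, -0.15, -0.25 and -0.22. Of the 56 followed genes called with the correction, 33 stayed called without any 1 sample. The shallow NNK samples limit statements on genes under about 8.85 CPM.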

Other observations

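The following genes were chosen after their values were seen, from those called with the correction in GFP cells and outside the lists and the naming rule. ACSS2, which makes acetyl-CoA from acetate, was at 0.85 uncorrected and 0.65 corrected, ERG28, a scaffold of sterol enzymes, at 0.74 and 0.78, and TECR, which completes long fatty acids, at 1.124 and 0.75. SGK1, a kinase induced by steroids and osmotic stress, was at 0.65 and 0.81, and SNAI2, a transcription factor of epithelial migration, at 0.34 and 0.61. CST3, a secreted protease inhibitor, was at 0.59 and 0.62. ACSS2, SGK1, SNAI2 and CST3 are among the 72 genes called with the correction in the same direction in HcRed cells. CBX3, a heterochromatin protein, was at -0.94 and -0.78, and CLK1, a kinase of splicing factors, at -1.11 and -0.77, and both fell in HcRed cells too.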
